A study of Homo sapiens with 6 samples.

Results

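Direct targets of MLL fusion proteins outside the HOXA cluster and MEIS1 were followed in MOLM-14, a human line grown from an acute myeloid leukaemia with an MLL-AF9 rearrangement. The 10 genes, of 19775 measured, were CDK6, JMJD1C, SENP6, SATB1, SOX4, ZEB2, MBNL1, IGF2BP2, CPEB2 and LAMP5. All probe sets annotated to any of these symbols were taken, which gave 43 of the 54613 probe sets tested on the Affymetrix U133 Plus 2.0 array, and none of the 43 listed a second gene. The tested cells had 25 nM cortistatin A (CA), a natural-product inhibitor of the Mediator kinases CDK8 and CDK19, for 3 h (n = 3 arrays). The control cells had the solvent DMSO for 3 h (n = 3 arrays). Both groups are the same line with the same rearrangement, plated in triplicate wells, and the labels name no separate cultures, so each p-value reflects only how these wells varied, and that variation may be technical. In bulk RNA, fewer cells that express a gene and less RNA per cell cannot be told apart.

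MLL (KMT2A) is a histone methyltransferase, and in MLL-AF9 its N-terminal part is joined to AF9, a subunit of the machinery that drives RNA polymerase II elongation. The fusion keeps the MLL domain that binds unmethylated CpG, and at its target genes it recruits elongation factors and the histone methyltransferase DOT1L, which keeps these genes highly transcribed in leukaemia. The 10 genes encode a cell cycle kinase (CDK6), regulators of chromatin and SUMO (JMJD1C, SENP6, SATB1), transcription factors (SOX4, ZEB2), RNA-binding proteins (MBNL1, IGF2BP2, CPEB2) and a membrane protein of lysosomes and endosomes (LAMP5). Mediator links transcription factors at enhancers to RNA polymerase II, and CDK8 and CDK19 belong to a kinase module that binds to it reversibly.

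The lines below give the 250 bases before the RefSeq start of the 5 genes with a single start in the table used (GRCh38.p14), 5′ to 3′ on the strand of the gene, because the CXXC domain kept in MLL fusions binds CpG. Capitals mark each CG.
LAMP5 (chr20:9514340-9514589, plus strand): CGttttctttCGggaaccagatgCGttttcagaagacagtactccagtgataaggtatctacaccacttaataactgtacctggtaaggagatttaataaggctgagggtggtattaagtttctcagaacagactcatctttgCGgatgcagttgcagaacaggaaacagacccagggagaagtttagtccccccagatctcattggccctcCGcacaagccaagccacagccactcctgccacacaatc
SOX4 (chr6:21593501-21593750, plus strand): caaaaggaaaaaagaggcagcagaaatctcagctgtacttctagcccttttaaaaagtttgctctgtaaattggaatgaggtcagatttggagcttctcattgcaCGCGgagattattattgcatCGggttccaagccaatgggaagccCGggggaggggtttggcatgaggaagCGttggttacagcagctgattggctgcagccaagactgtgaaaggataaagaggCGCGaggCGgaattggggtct
ZEB2 (chr2:144520120-144520369, minus strand): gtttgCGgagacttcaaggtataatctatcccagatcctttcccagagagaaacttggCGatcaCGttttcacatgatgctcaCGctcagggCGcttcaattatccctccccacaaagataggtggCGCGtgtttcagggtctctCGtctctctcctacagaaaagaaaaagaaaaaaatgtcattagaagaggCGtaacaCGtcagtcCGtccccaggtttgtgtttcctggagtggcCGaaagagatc
SENP6 (chr6:75601630-75601879, plus strand): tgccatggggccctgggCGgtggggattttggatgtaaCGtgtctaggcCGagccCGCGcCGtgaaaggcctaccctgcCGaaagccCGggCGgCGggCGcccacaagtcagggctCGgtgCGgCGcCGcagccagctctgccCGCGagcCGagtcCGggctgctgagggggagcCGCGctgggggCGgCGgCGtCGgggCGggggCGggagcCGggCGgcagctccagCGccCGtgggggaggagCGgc
CPEB2 (chr4:15002231-15002480, plus strand): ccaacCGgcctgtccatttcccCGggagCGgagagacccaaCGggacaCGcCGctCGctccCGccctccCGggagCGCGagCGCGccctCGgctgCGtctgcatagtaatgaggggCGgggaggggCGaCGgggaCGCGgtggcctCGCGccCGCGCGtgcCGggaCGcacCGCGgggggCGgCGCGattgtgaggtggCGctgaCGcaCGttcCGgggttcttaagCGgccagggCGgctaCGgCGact

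LAMP5 had 5 CG in this window, SOX4 had 8, ZEB2 had 12, SENP6 had 32 and CPEB2 had 40. The median over 35114 RefSeq windows of the same length was 11, and 34.3% of them had fewer CG than LAMP5, against 97.8% with fewer than CPEB2. The other 5 genes had 14 starts between them. CDK6 had 23 and 30 CG at its starts, the 3 starts of JMJD1C had 5, 34 and 35, and the 2 of IGF2BP2 had 2 and 32. The windows were also searched on both strands for TGTGGT (a RUNX motif), GGAAGT (an ETS motif), TTGCNNAA (a C/EBP motif) and TGACTCA (an AP-1 motif), none of which contains another. TTGCNNAA was found at LAMP5 and at 1 start of SATB1, and in 9.05% of all windows. TGTGGT was found at 1 start each of JMJD1C and SATB1 (11.0% of all windows), GGAAGT at 4 of the 19 member starts (19.5% of all windows) and TGACTCA at none (4.20% of all windows). A match is a run of letters and no evidence of binding.

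After 3 h of CA, transcripts of SENP6, JMJD1C, LAMP5 and SOX4 were 13.2% to 21.2% higher than in DMSO at the brightest probe set of each gene. Those of CDK6 were 9.30% higher, and those of SATB1, IGF2BP2 and MBNL1 3.61% to 7.49% higher. CPEB2 and ZEB2 were 12.5% and 8.98% lower. None of the 43 probe sets passed the test. In limma with Benjamini-Hochberg adjustment over all 54613 probe sets, 0 of 43 had an adjusted p under 0.05, against 0.22% of all probe sets. Without adjustment 15 of the 43 were higher in CA at a p under 0.05 and 1 was lower, where 4.91% of all probe sets were higher and 3.71% were lower. At 19 probe sets all 3 CA values lay above all 3 DMSO values, and at 2 all lay below, against 8.96% and 6.55% of all probe sets. Brighter probe sets separate more often. Of the 35 members with a mean log2 value of at least 5, 18 lay above and 1 below, against 13.3% and 7.76% of all such probe sets. At an unadjusted p under 0.05 in the same limma fit, 14 of these 35 were higher and 0 lower, against 6.43% and 3.51%. The median log2 change of the 43 was 0.10, against -0.0011 over all probe sets. Since probe sets of 1 gene share a transcript and the genes were chosen with earlier results known, these counts describe the genes and are no test of them.

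**Figure D1:**
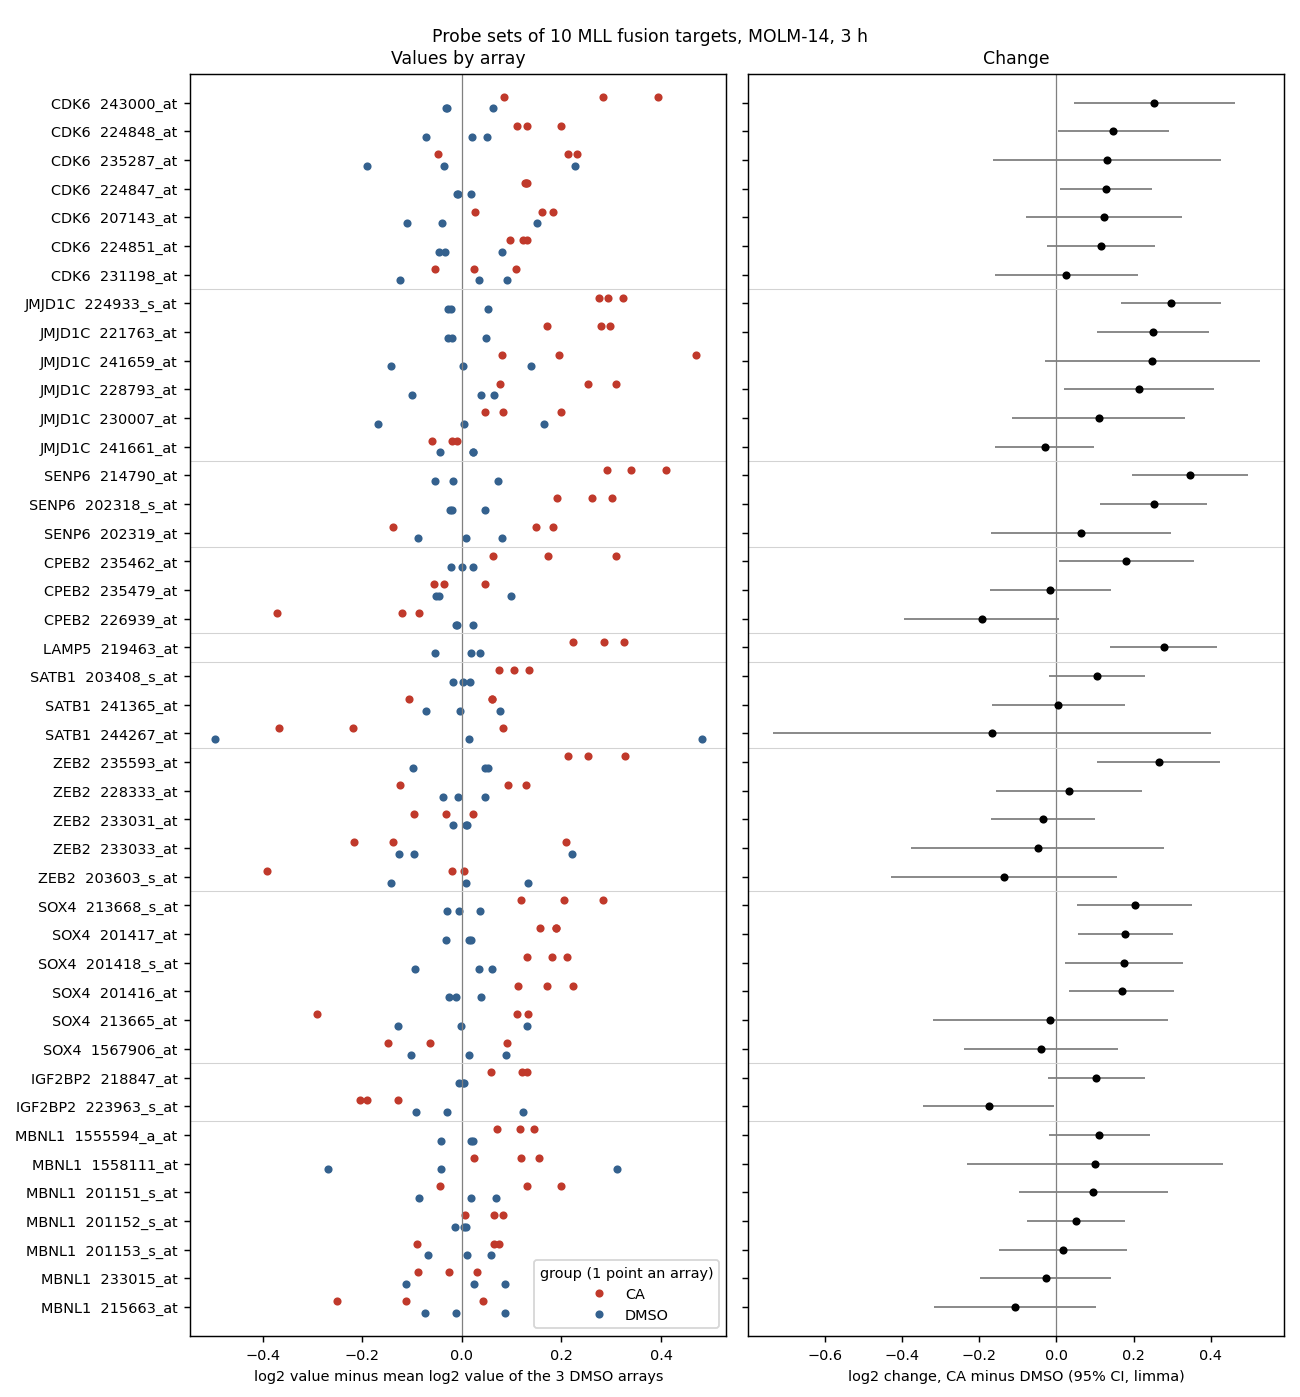
Left, the log2 value of each array minus the mean of the 3 DMSO arrays, with 1 point an array, for the 43 probe sets grouped by gene. Right, the log2 change of CA over DMSO with its 95% confidence interval from limma. The 3 CA points lie above the 3 DMSO points at 19 probe sets and below them at 2, and changes run from -0.19 to 0.35.

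The result depended on how limma modelled the spread. With a prior spread that follows signal and a robust fit, 9 member probe sets passed, all higher in CA, against 1.17% of all probe sets called higher in that fit. These were both main probe sets of SENP6 and of JMJD1C and 1 each of LAMP5, SOX4, CDK6, SATB1 and ZEB2. Without probe sets under a mean log2 value of 5, JMJD1C 224933_s_at and SENP6 214790_at passed (adjusted p = 0.0295 and 0.0381, limma), against 1.26% of the remaining probe sets called higher. In both fits the log2 changes are the same as in the fit over all probe sets. The estimate of spread differs in both, and without dim probe sets the number of tests differs too.

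The arrays had median log2 values between 5.03 and 5.08, and pairs of arrays correlated at 0.996 to 0.998. CA replicate 3 lay apart on the first principal component (31.6% of the variance), at 33.8 against -12.8 to 6.44 for the other 5 arrays. The 15 member probe sets with CA higher at a p under 0.05 before adjustment became 12 without CA replicate 3, where 5.33% of all probe sets were higher and 5.23% lower. They became 8 without CA replicate 1 (4.97% of all probe sets higher) and 9 without DMSO replicate 2 (4.12%). The counts were 10 without CA replicate 2 (4.48%), 10 without DMSO replicate 3 (3.88%) and 13 without DMSO replicate 1 (3.65%). After adjustment 0 passed in each of these 6 fits (limma). Of 10 myeloid markers measured, CD14 was dim, with a mean log2 value of 3.91. The other 9 had a mean log2 value of at least 5, with MPO (6.35), LYZ (12.4) and SPI1 (5.43) among them. Of the 9 markers of T, NK and B cells 6 did, as did 3 of 8 epithelial and fibroblast markers and 5 of 6 erythroid and megakaryocyte markers. Of 5 stem and progenitor markers measured 2 had such a value, as did 3 of 4 plasmacytoid dendritic markers. Probe sets differ in background, and the deposited table holds no detection calls, so these counts do not show which genes were silent. None of the markers of the 6 cell type lists passed in limma. Before adjustment 4 had a p under 0.05 with CA higher and 1 with CA lower, where 7.09% and 4.5% of all genes had.

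CDK6 encodes the kinase that joins D-type cyclins to phosphorylate RB in G1, and it is needed for growth in models of MLL-rearranged leukaemia. All 7 of its probe sets had a change above 0, between 0.03 and 0.25 on the log2 scale. The brightest, 224847_at, had a log2 value of 12.26 on each of the 3 CA arrays, against 12.12, 12.12 and 12.15 in DMSO. The groups do not overlap, and the difference of 0.13 (SE 0.05) is 1.09-fold (95% confidence interval 1.01 to 1.19, adjusted p = 0.555, limma). The next probe set by signal, 224851_at, gave 12.17, 12.18 and 12.14 in CA, against 12.13, 12.00 and 12.01 in DMSO, a log2 change of 0.12 (-0.02 to 0.26). At 224848_at the values were 10.30, 10.37 and 10.28 in CA, against 10.10, 10.19 and 10.22 in DMSO, a change of 0.15. These 3 probe sets gave like changes of 8.40% to 10.7%.

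The largest CDK6 value came from a dimmer probe set, 243000_at, with 7.50, 7.61 and 7.30 in CA, against 7.18, 7.28 and 7.18 in DMSO. Its groups do not overlap, but CA replicate 3 lay close to the DMSO arrays, and the log2 change of 0.25 (SE 0.09) was 0.34 without that array and 0.18 without CA replicate 2. Before adjustment its p was under 0.05 in 2 of the 6 fits that left out 1 array. At the other 3 probe sets of CDK6 the groups overlap, with log2 changes of 0.13 (235287_at), 0.12 (207143_at) and 0.03 (231198_at). The first ran from 0.04 without DMSO replicate 3 to 0.25 without DMSO replicate 1, and 207143_at from 0.07 without DMSO replicate 3 to 0.20 without DMSO replicate 2.

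JMJD1C belongs to the KDM3 family of Jumonji-domain proteins, which are linked to histone demethylation, and it is required for MLL-AF9 leukaemia in mice. At 224933_s_at the log2 values were 11.19, 11.14 and 11.16 in CA, against 10.92, 10.84 and 10.84 in DMSO. Every CA array lay above every DMSO array, and the difference was 1.23-fold (1.12 to 1.34, adjusted p = 0.137, limma). At 221763_at CA had 11.36, 11.37 and 11.25, against 11.05, 11.12 and 11.06 in DMSO, a log2 change of 0.25 (SE 0.06, adjusted p = 0.294, limma). Another probe set, 228793_at, gave 8.83, 8.78 and 8.60 in CA and 8.59, 8.56 and 8.42 in DMSO, again without overlap, with a log2 change of 0.21. The 3 brightest probe sets of JMJD1C therefore lay in the same direction, by 16.0% to 22.9%. The other 3, with mean log2 values between 3.48 and 5.61, had log2 changes of 0.25 (241659_at), 0.11 (230007_at) and -0.03 (241661_at), and their groups overlap. Leaving out 1 array moved them to between 0.14 and 0.33 at 241659_at, 0.03 (without DMSO replicate 2) and 0.19 (without DMSO replicate 3) at 230007_at, and -0.05 and -0.01 at 241661_at.

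SENP6 encodes a protease that trims chains of the SUMO proteins SUMO2 and SUMO3 from their targets. Its probe set 214790_at had the largest change of all 43, with log2 values of 9.50, 9.57 and 9.45 in CA, against 9.10, 9.23 and 9.14 in DMSO. The groups lie well apart, and the level was 1.27-fold (1.15 to 1.41, adjusted p = 0.133, limma), which ranked 377th by p among all probe sets. At 202318_s_at CA had 10.84, 10.88 and 10.77, against 10.56, 10.63 and 10.56 in DMSO, or 1.19-fold (1.08 to 1.31). The third probe set, 202319_at, did not separate the groups, with 9.14, 9.18 and 8.86 in CA and 9.00, 9.07 and 8.91 in DMSO. There the log2 change was 0.06 (-0.17 to 0.30). It was 0.17 without CA replicate 3, but 0.0054 when CA replicate 2 was left out, and 0.02 when either CA replicate 1 or DMSO replicate 3 was.

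SATB1 organises chromatin by binding AT-rich DNA and is best known from T cells. Its brightest probe set, 203408_s_at, had 12.87, 12.90 and 12.93 in CA, against 12.80, 12.81 and 12.78 in DMSO. The groups do not overlap, and the log2 change was 0.10 (-0.02 to 0.23, adjusted p = 0.639, limma). The values of 241365_at overlap, with 11.77, 11.77 and 11.60 in CA and 11.70, 11.78 and 11.63 in DMSO. The log2 change there was 0.0042 (-0.17 to 0.18), and replicate 3 was the lowest of each group. At 244267_at the DMSO arrays alone spread from 6.45 to 7.43, against 6.58 to 7.03 in CA, so that the change of -0.17 has an interval of -0.74 to 0.40.

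SOX4 is an HMG-box transcription factor that promotes leukaemia in mice when overexpressed. Its 4 brightest probe sets each had all CA arrays above all DMSO arrays. At 201417_at the log2 values were 11.55, 11.52 and 11.55 in CA, against 11.38, 11.37 and 11.33 in DMSO, which is 1.13-fold (1.04 to 1.23, adjusted p = 0.397, limma). At 201416_at they were 9.97, 9.92 and 9.86 in CA, against 9.79, 9.72 and 9.74 in DMSO. The values at 201418_s_at were 8.35, 8.27 and 8.31 in CA, against 8.20, 8.04 and 8.17 in DMSO, and those at 213668_s_at were 8.05, 7.97 and 7.89, against 7.76, 7.74 and 7.80. The 4 log2 changes lay between 0.17 and 0.20. The other 2 probe sets, with mean log2 values of 5.50 and 5.34, had changes of -0.02 (213665_at) and -0.04 (1567906_at) and overlapping groups.

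ZEB2 is a zinc-finger repressor that binds E-boxes and is needed in models of acute myeloid leukaemia. The changes of its 5 probe sets differed in sign. At 235593_at the log2 values were 8.52, 8.59 and 8.48 in CA, against 8.32, 8.31 and 8.17 in DMSO, without overlap, a change of 0.26 (0.10 to 0.42, adjusted p = 0.317, limma). At 228333_at they were 9.87, 9.91 and 9.65 in CA and 9.77, 9.82 and 9.74 in DMSO, and the brightest, 203603_s_at, had 10.12, 10.15 and 9.75 in CA and 10.15, 10.28 and 10.00 in DMSO. Both overlap, with log2 changes of 0.03 and -0.14, and at 203603_s_at it was -0.0079 without CA replicate 3, -0.07 without DMSO replicate 2 and -0.21 without DMSO replicate 3. The remaining 2 were dim, with changes of -0.03 (233031_at; -0.06 to -0.0042 with 1 array left out) and -0.05 (233033_at). Whether the probe sets of ZEB2 differ from each other in their change was not tested, and the sources used here do not give which part of the transcript each one reads.

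**Figure D2:**
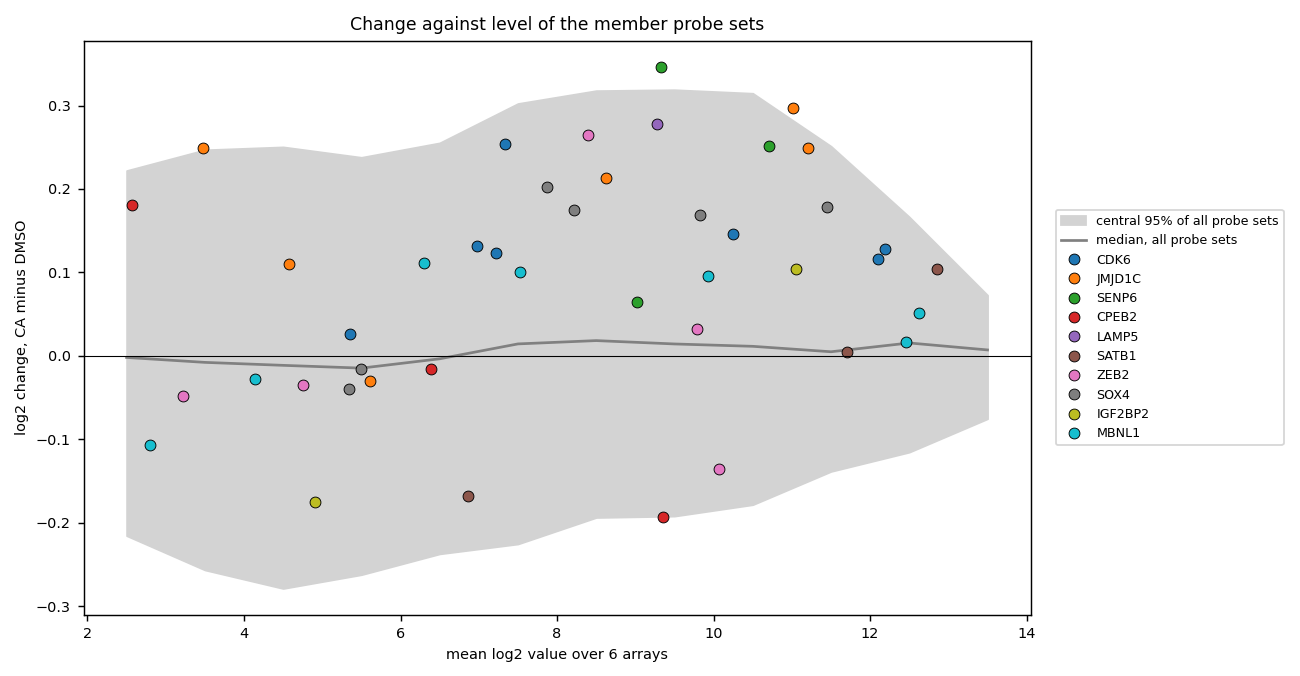
The log2 change of CA over DMSO (vertical) against the mean log2 value over all 6 arrays (horizontal) for the 43 probe sets, coloured by gene. The grey band spans the 2.5th to 97.5th percentile of all 54613 probe sets in bins of 1 log2 unit, and 3 member probe sets lie above the percentiles of their bin and 1 below.

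Set against probe sets of like signal, 2 JMJD1C probe sets (224933_s_at and 241659_at) and SENP6 214790_at lay above the 97.5th percentile of the change in their bin of signal, and CPEB2 226939_at lay below the 2.5th. The other 39 lay between. JMJD1C 224933_s_at, with a mean log2 value of 11.02, sat just above the lower edge of its bin. Its change of 0.297 passed the limit of 0.251 there, but not that of 0.315 in the next lower bin. At 241659_at and 226939_at the margin was small: 0.249 against a limit of 0.247, and -0.193 against -0.192. The change at 241659_at was 0.14 without CA replicate 3 and 0.18 without DMSO replicate 1, and that at 226939_at was -0.10 without CA replicate 3, all inside those limits. SENP6 214790_at had a change of 0.346 against a limit of 0.319. Without CA replicate 2 its change was 0.315, inside that limit. The band narrows with signal: it ran from -0.19 to 0.32 for log2 values of 9 to 10 and from -0.12 to 0.17 for 12 to 13. Of the 35 member probe sets with a mean log2 value of at least 5, 28 had a change above 0, or 80.0%, against 51.6% of all probe sets with such signal.

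MBNL1 is a splicing regulator that is trapped by repeat RNA in myotonic dystrophy. At its brightest probe set, 201152_s_at, the log2 values were 12.66, 12.68 and 12.60 in CA and 12.58, 12.60 and 12.60 in DMSO. The groups meet, and the log2 change was 0.05 (-0.08 to 0.18, adjusted p = 0.822, limma). At 201153_s_at they were 12.53, 12.52 and 12.37 in CA and 12.47, 12.51 and 12.39 in DMSO, a change of 0.02 (-0.15 to 0.18). Of the 7 probe sets, 1555594_a_at was the one without overlap, with 6.39, 6.32 and 6.37 in CA, against 6.27, 6.27 and 6.21 in DMSO. Its change was 0.11 (-0.02 to 0.24). The 4 others had changes between -0.11 and 0.10, with overlapping groups. With 1 array left out, 201151_s_at ran from 0.04 (without CA replicate 2) to 0.17 (without CA replicate 3), and 215663_at from -0.18 (without CA replicate 3) to -0.03 (without CA replicate 2).

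IGF2BP2 binds mRNA, recognises N6-methyladenosine and stabilises its targets. Its bright probe set, 218847_at, had 11.12, 11.06 and 11.13 in CA, against 11.01, 11.00 and 11.01 in DMSO. The groups do not overlap, and the change was 1.07-fold (0.985 to 1.17, adjusted p = 0.643, limma). Its other probe set, 223963_s_at, lay near the array medians and went the other way. There CA had 4.79, 4.87 and 4.80, against 5.12, 4.97 and 4.90 in DMSO, a log2 change of -0.18 (-0.34 to -0.0054). Of the 43 it alone had CA lower at a p under 0.05 before adjustment, and its adjusted p was 0.571 (limma). The change was -0.11 without DMSO replicate 1, and the p before adjustment was under 0.05 in 1 of the 6 fits that left out 1 array.

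CPEB2 binds cytoplasmic polyadenylation elements in mRNA and controls translation. Its brightest probe set, 226939_at, was lower in CA, with log2 values of 9.34, 9.37 and 9.08, against 9.45, 9.48 and 9.44 in DMSO. The groups do not overlap, but much of the difference came from 1 array: the log2 change was -0.19 (-0.39 to 0.0073, adjusted p = 0.594, limma), and -0.10 without CA replicate 3. At 235479_at CA had 6.36, 6.45 and 6.34 and DMSO had 6.35, 6.35 and 6.50, a change of -0.02 with overlapping groups. The third, 235462_at, had 2.54, 2.65 and 2.79 in CA, against 2.50, 2.48 and 2.46 in DMSO, close to the lowest values on the array (1.82). Its change of 0.18 was 0.12 without CA replicate 3 and 0.24 without CA replicate 1.

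LAMP5 encodes a lysosome-associated membrane protein of neurons and plasmacytoid dendritic cells. It has 1 probe set, 219463_at, which had log2 values of 9.36, 9.46 and 9.42 in CA, against 9.09, 9.16 and 9.18 in DMSO. All CA arrays lay above all DMSO arrays, and the means were 9.42 ± 0.05 and 9.14 ± 0.05 (SD, n = 3 each). The level was 1.21-fold (1.10 to 1.33, adjusted p = 0.215, limma). Over fits that left out 1 array each, its log2 change stayed between 0.25 and 0.30. Of 4 plasmacytoid dendritic cell markers, CLEC4C, LILRA4 and SPIB had log2 changes of -0.14, -0.04 and -0.06 and IL3RA had 0.25 (adjusted p = 0.0884 over genes, limma). All samples are the MOLM-14 line, and CLEC4C was dim, with a mean log2 value of 3.28. Whether LAMP5 changed together with these markers was not tested.

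**Figure D3:**
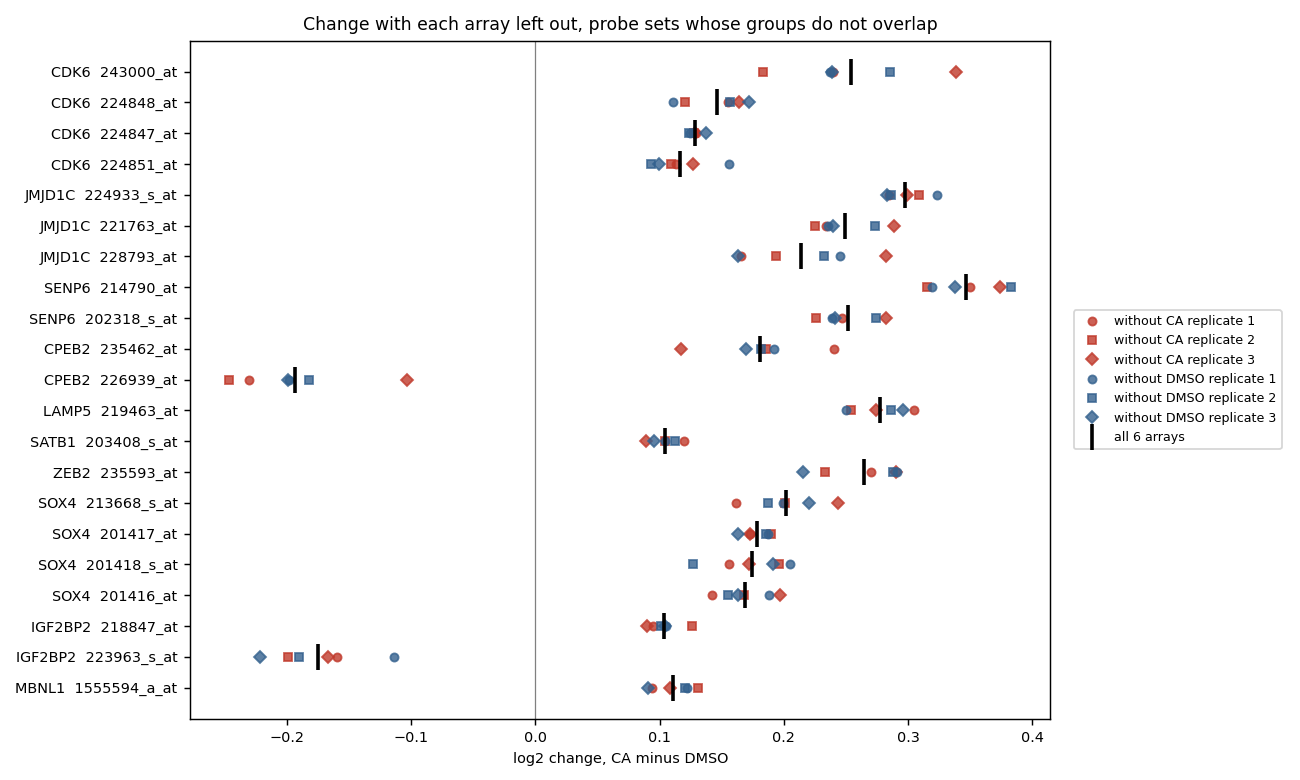
The log2 change of CA over DMSO (horizontal) for the 21 member probe sets whose groups do not overlap, from all 6 arrays (black bar) and with each array left out in turn (points). CPEB2 226939_at was at -0.19 over all arrays and at -0.10 without CA replicate 3, and SENP6 214790_at and 202318_s_at, JMJD1C 224933_s_at and 221763_at, and LAMP5 lay between 0.23 and 0.38 throughout.

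The same arrays were read at 1 probe set a gene, the one with the highest mean, to set the 10 genes beside related genes. In this fit over 19775 genes, 0 of the 10 passed in limma (0.839% of all genes were called higher and 0.0556% lower). Before adjustment, 6 had a p under 0.05 with CA higher and 0 with CA lower, against 7.09% and 4.5% of all genes. LAMP5 came nearest to the threshold, with an adjusted p of 0.0884, followed by SENP6 at 0.110, JMJD1C at 0.136 and SOX4 at 0.179 (limma). The median log2 change of the 10 genes was 0.12, against 0.0037 over all genes.

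Of 15 measured genes from a list of 18 other MLL fusion targets, 6 were called higher in CA and 0 lower in limma, and 9 did not pass. Of all genes 0.839% were called higher and 0.0556% lower. With the replicate number as a block 0 of the list passed, and with arrays centred on their medians 3 did. The median log2 change was 0.22, and EYA1 and ARID1B lay below 0, at -0.19 and -0.07. This list, too, was made with earlier results of these data known. MYB, a transcription factor of progenitor cells, had log2 values of 12.64, 12.67 and 12.72 in CA, against 12.32, 12.30 and 12.32 in DMSO, or 1.29-fold (1.20 to 1.38, adjusted p = 0.0244, limma). RUNX2, a factor known from bone and from dendritic cells, had 10.53, 10.55 and 10.37 in CA, against 9.98, 10.07 and 10.08 in DMSO, or 1.36-fold (adjusted p = 0.0405, limma), but a log2 change of 0.10 (adjusted p = 0.588) when all its probe sets were averaged. PBX3, a partner of HOX proteins, and MEF2C, a MADS-box factor, had log2 changes of 0.36 each (adjusted p = 0.0271 and 0.0272, limma). With all probe sets of a gene averaged, 2 of these named genes lost their call, RUNX2 among them, and 3 genes of the list passed. Whether the 10 genes and this list differ in their change was not tested, and these calls were fragile: MYB, PBX3 and MEF2C lost them in each of the 6 fits that left out 1 array, and RUNX2 in all but the fit without CA replicate 3 (adjusted p = 0.0354, limma).

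**Figure D4:**
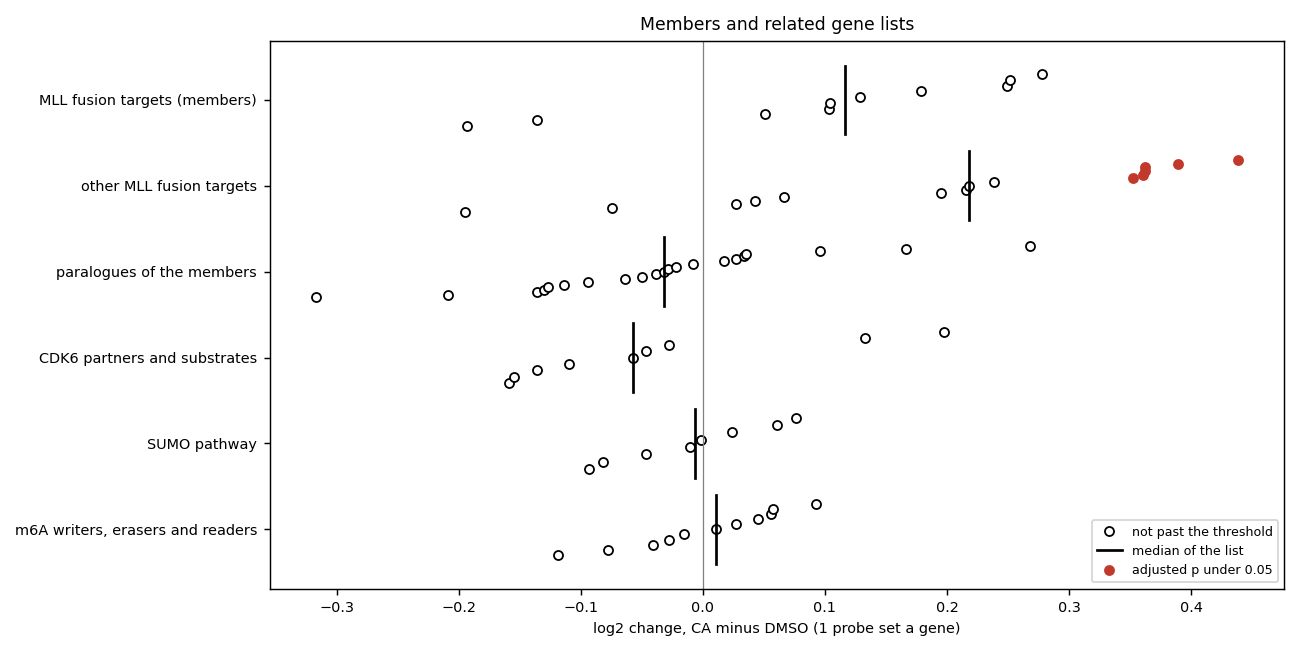
The log2 change of CA over DMSO for single genes (points, 1 probe set a gene) in 6 lists, with filled points for genes past an adjusted p of 0.05 and a bar at the median of each list. Filled points are seen in the list of other MLL fusion targets, which has 6 of them.

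Relatives and partners of the 10 genes gave no calls in limma. Of 21 measured paralogues (among them CDK4, KDM3A, ZEB1 and MBNL2), 0 passed over all genes, and the median log2 change was -0.03. Before adjustment 2 were higher and 1 was lower (p under 0.05), against 7.09% and 4.5% of all genes. CPEB4, a relative of CPEB2, had 6.49, 6.51 and 6.25 in CA, against 6.63, 6.90 and 6.67 in DMSO, a log2 change of -0.32 (-0.56 to -0.07, adjusted p = 0.313, limma). The other relatives CPEB1 and CPEB3 had changes of -0.09 and -0.21, with overlapping values. SENP3, a SUMO protease of the nucleolus, had a change of 0.17 (adjusted p = 0.320, limma).

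Without adjustment (p under 0.05, limma), 7.09% of all genes were higher and 4.5% lower. Of 9 measured partners and substrates of CDK6, 0 passed, 2 were higher without adjustment and the median change was -0.06. These were the cyclin genes CCND3, at 0.13 (adjusted p = 0.330, limma), and CCND1, at 0.20 (adjusted p = 0.361, limma). In the SUMO pathway, where SENP6 acts, 0 of 8 measured genes passed, 0 had an unadjusted p under 0.05, and the median was -0.0061. Its 2 genes with the smallest p were RNF4, a ligase that recognises SUMO chains, at 0.08, and PIAS2, at 0.06. Among writers, erasers and readers of N6-methyladenosine, 0 of 11 measured genes passed, with 0 higher and 1 lower without adjustment, and the median was 0.01. WTAP, a subunit of the methyltransferase complex, had a change of -0.12 (adjusted p = 0.338, limma) and METTL3, its catalytic subunit, 0.09. The directions of PIAS2, WTAP and METTL3 depended on which probe sets were read.

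The 10 genes lie on chromosomes 2, 3, 4, 6, 7, 10 and 20, and their lengths run from 4.87 kb (SOX4) and 15.9 kb (LAMP5) to 355 kb (JMJD1C). Of the 20 protein-coding genes next to them, 17 were measured, and 1 of these passed in limma, where 0.839% of all genes were called higher. This was SUCNR1, the succinate receptor gene next to MBNL1, named after its values were seen, with a log2 change of 0.57 (adjusted p = 0.0385). The other neighbours had no unadjusted p under 0.05 in limma, and NRBF2 and REEP3, on either side of JMJD1C, had changes of -0.05 and -0.00066. MYO6, next to SENP6, had 0.09, and PLCB4 and PAK5, next to LAMP5, were dim, with 0.20 and -0.10.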

How the data were processed

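RNA of 3 CA and 3 DMSO samples was hybridised to 1 Affymetrix array each. The deposited values are log2 expression, 1 per probe set and array; the submitters' processing notes name RMA and affy. RMA sets the arrays to a common distribution, so a change shared by all genes is lost. Software versions and detection calls: not given in the sources used here. Per the labels' protocols RNA came from either of 2 reagents, with no record here of which sample had which, so its part was not tested.

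After 62 control probe sets were left out, limma 3.58.1 (R 4.3.3) set CA against DMSO in a two-sided test, with Benjamini-Hochberg adjustment across 54613 probe sets, or across 19775 genes read at the probe set with the highest mean. The platform annotation gave 1 symbol to 41091 probe sets. With 3 against 3 arrays an exact permutation test cannot give a p below 0.1. The limma fit over all probe sets was tried on simulated arrays with independent noise and planted changes larger than any member change. That trial does not cover changes as small as those of the members. Promoter sequences are from RefSeq (GRCh38.p14). Every member probe set is described, and of each other list up to 4 called genes, or else the 2 with the smallest p. The members and lists were chosen with earlier results of these data known, and motifs and neighbours likewise. Listed genes with no probe set of 1 symbol were not analysed here (RUNX1 and BMI1 among them).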

Additional observations from a re-analysis of the deposited data

How the results depend on the processing

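Over all probe sets 116 were called higher in CA and 4 lower, and over all genes 166 and 11 (limma). With the replicate number as a block, 1 probe set was called higher and 0 lower, 6 genes higher and 0 lower, and 0 other MLL fusion targets, against 6 without it. The values do not settle whether the replicate numbers pair the samples. Same-numbered arrays correlated at 0.081, 0.19 and 0.26 in their deviations from the group means. Among arrays with different numbers, CA replicate 1 correlated at 0.083 with DMSO replicate 2, and the other pairs lay between -0.23 and -0.014. With an intensity trend and robust fit, 640 probe sets were higher and 100 lower, 9 of them members, and 450 genes were higher and 96 lower, with 6 of the 10 members higher and 1 N6-methyladenosine gene lower. Array weights gave 185 and 11 probe sets and 21 genes lower. Arrays centred on their medians gave 2 probe sets lower, 5 genes lower and 3 other MLL fusion targets. Without dim probe sets, 350 were higher and 33 lower, 2 of them members, and 311 genes were higher and 40 lower, 2 of them members. Without probe sets of the _x, _s and _a types, 47 were higher and 0 lower, and 72 genes higher and 2 lower, with 3 other MLL fusion targets, as with all probe sets of a gene averaged. At an adjusted p under 0.01, 5 probe sets were higher and 0 lower. Leaving out 1 array gave 0 to 6 probe sets higher and 0 lower, 1 to 103 genes higher and 0 to 9 lower, and 0 to 2 other MLL fusion targets. The cause of these differences was not tested. Some settings have fewer tests or arrays, and the estimate of spread can change as well. Without dim probe sets the SE at SENP6 214790_at was 0.0543, against 0.0634 with all probe sets.

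The sign turned at SOX4 213665_at with array weights (0.040). PIAS2 had -0.23 without the _x, _s and _a types and -0.052 averaged, WTAP 0.0052 and 0.0012, and METTL3 -0.14 and -0.067. Fits without 1 array ran from -0.036 to 0.071 at CDK6 231198_at, -0.047 to 0.033 at CPEB2 235479_at, -0.032 to 0.059 at SATB1 241365_at, -0.42 to 0.073 at SATB1 244267_at, -0.016 to 0.11 at ZEB2 228333_at and -0.18 to 0.062 at ZEB2 233033_at. They ran from -0.090 to 0.12 at SOX4 213665_at, -0.11 to 0.013 at SOX4 1567906_at, -0.035 to 0.26 at MBNL1 1558111_at, -0.018 to 0.070 at MBNL1 201153_s_at and -0.084 to 0.016 at MBNL1 233015_at. The 3 arrays of each group and the lack of detection calls limit what can be said of dim probe sets.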
